A study of Mus musculus with 4 samples.

Results

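The sarcomeric myosin heavy chain genes encode the motor subunit of the thick filament in striated muscle. The 9 mouse genes examined were Myh1, Myh2, Myh3, Myh4, Myh6, Myh7, Myh7b, Myh8 and Myh13. Their data were the regions of captured DNA that were lower after tamoxifen than after oil and that overlapped a gene body or the 2000 bp on either side of it, together with any such region between the members of the chromosome 11 cluster or between Myh6 and Myh7. This rule took 31 of the 39231 regions in the deposited list, 20 from the chromosome 11 cluster, 7 from the Myh6 and Myh7 pair on chromosome 14 and 4 from Myh7b on chromosome 2. Of the 31 regions, 28 overlapped a gene body, 1 lay only in the flank of Myh7b, and 2 lay between Myh3 and Myh2. No region was counted for more than 1 member.

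The cells were satellite cells, the stem cells of skeletal muscle, taken from hindlimb muscle of 9-week-old mice and cultured for 3 days. Tamoxifen mice had received 150 µl of a 20 mg/ml tamoxifen solution on 5 consecutive days to trigger Cre recombination, and the design text calls them Uhrf1-deficient in satellite cells. Oil mice served as controls. The sources used here name neither the Cre driver nor the floxed allele, nor do they say whether oil mice carried them. The MBD2 protein domain, which binds methylated CpG, was used to pull methylated fragments out of sheared DNA, and the rest was kept as the non-methylated part, giving 4 libraries in 4 groups with 1 library per group.

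The list compares the tamoxifen alignment (25614791 tags left after duplicate removal) with the oil alignment (19534328 tags). Per the command line in the header, oil was the peak caller's treatment and tamoxifen its control, although the list's own name has them the other way round. The header does not name the DNA part, and the captured, methylated part is assumed here. Every fold below is the authors' oil over tamoxifen value at the summit, so a larger fold means a lower tamoxifen signal. Tags are unscaled counts over the summit, limits are exact (Clopper-Pearson) 95% limits of the scaled oil over tamoxifen tag ratio, or of the kept share, that cover counting error only, and the kept share is the tamoxifen signal, scaled to the oil library, as a percentage of the oil signal. Without replicates no spread between mice or cultures could be estimated, no test between treatments was made, and less methylation per cell, fewer methylated cells, fewer DNA copies and weaker capture cannot be told apart. The data are DNA, so neither the labelled cell type nor the loss of Uhrf1 could be checked by transcripts.

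Sarcomeric heavy chains are expressed by stage and fibre type. Myh3 (embryonic) and Myh8 (perinatal) are used in developing and regenerating muscle, Myh2 (IIa), Myh1 (IIx) and Myh4 (IIb) in adult fast fibres, and Myh13 in extraocular muscle, and these genes stand in a row on chromosome 11. Myh7, the slow or beta heavy chain, and Myh6, the alpha chain of the heart, lie side by side on chromosome 14, while Myh7b lies alone on chromosome 2. Cultured satellite cells switch on heavy chain genes chiefly when they differentiate and fuse. DNA methylation at CpG sites is copied at each cell division by Dnmt1, which the Uhrf1 protein brings to newly replicated DNA.

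The only member with a region over its annotated start was Myh13. The window there is shown with those of the members that had the most and the fewest CpG sites. Each run is 300 bases of RefSeq sequence (GRCm38.p6), 250 before to 50 after the start, 5′ to 3′, with every CpG in capitals. All are on the plus strand. The region chr11:67327099-67327299 covers the last 54 bases of the Myh13 window, in which 2 of its 3 CpG sites lie. The 50 bases from the annotated Myh13 start begin with ATG and hold no in-frame stop codon. This start may therefore be that of translation and not of transcription.
Myh13, chr11:67326853-67327152: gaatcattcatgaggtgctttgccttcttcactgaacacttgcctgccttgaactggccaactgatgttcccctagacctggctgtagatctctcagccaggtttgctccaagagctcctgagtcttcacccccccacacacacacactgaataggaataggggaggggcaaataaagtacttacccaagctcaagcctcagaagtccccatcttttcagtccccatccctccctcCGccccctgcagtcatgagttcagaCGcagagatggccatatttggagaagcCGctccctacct
Myh2, chr11:67170777-67171076: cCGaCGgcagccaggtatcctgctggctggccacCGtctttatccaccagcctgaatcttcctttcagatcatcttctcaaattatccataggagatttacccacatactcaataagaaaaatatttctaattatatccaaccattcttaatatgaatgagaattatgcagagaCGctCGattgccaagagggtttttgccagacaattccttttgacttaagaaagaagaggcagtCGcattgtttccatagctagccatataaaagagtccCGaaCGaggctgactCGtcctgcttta
Myh4, chr11:67237562-67237861: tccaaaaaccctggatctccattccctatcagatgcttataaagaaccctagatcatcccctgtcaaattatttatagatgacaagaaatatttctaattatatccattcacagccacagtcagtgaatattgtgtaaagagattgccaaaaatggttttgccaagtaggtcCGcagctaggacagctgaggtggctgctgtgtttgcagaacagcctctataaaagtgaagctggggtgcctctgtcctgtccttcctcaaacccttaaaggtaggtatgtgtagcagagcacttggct
Myh6, Myh7 and Myh7b each hold a microRNA gene, and the mature strands that share most of their seed are shown because the regions nearest to them are described below. Capitals mark the seed, bases 2 to 8, and sequences are from RefSeq (GRCm38.p6).
mmu-miR-208a-3p, from Mir208a in Myh6: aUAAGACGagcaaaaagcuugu
mmu-miR-208b-3p, from Mir208b in Myh7: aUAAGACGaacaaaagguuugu
mmu-miR-499-5p, from Mir499 in Myh7b: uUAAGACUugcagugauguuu

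All 9 members carried at least 1 region that was lower in the tamoxifen library. Among 21887 protein-coding genes 45.2% did so by the same rule, and among the 3838 with a length in the members' range (22.6 to 44.5 kb) 55.4% did. The number of regions per member ranged widely. Myh3 had 6, Myh2, Myh7 and Myh7b had 4 each, Myh1 and Myh6 had 3 each, Myh4 and Myh8 had 2 each and Myh13 had 1. Thus 8 of 9 members had 2 or more regions (28.4% of protein-coding genes of like length), 6 had 3 or more (14.4%), 4 had 4 or more (6.77%) and 1 had 6 (1.56% had 6 or more). Per length, member bodies held 11.3 regions per 100 kb, against 3.25 in protein-coding genes of like length and 2.26 in all protein-coding genes. Myh13, with 1 region and 2.25 per 100 kb, lay under the value for like length and level with that of all protein-coding genes. Myh3 had the most with 24.98 per 100 kb. These shares and densities are descriptions, since no test of the list was made and CpG density, on which capture depends, was not matched.

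**Figure D1:**
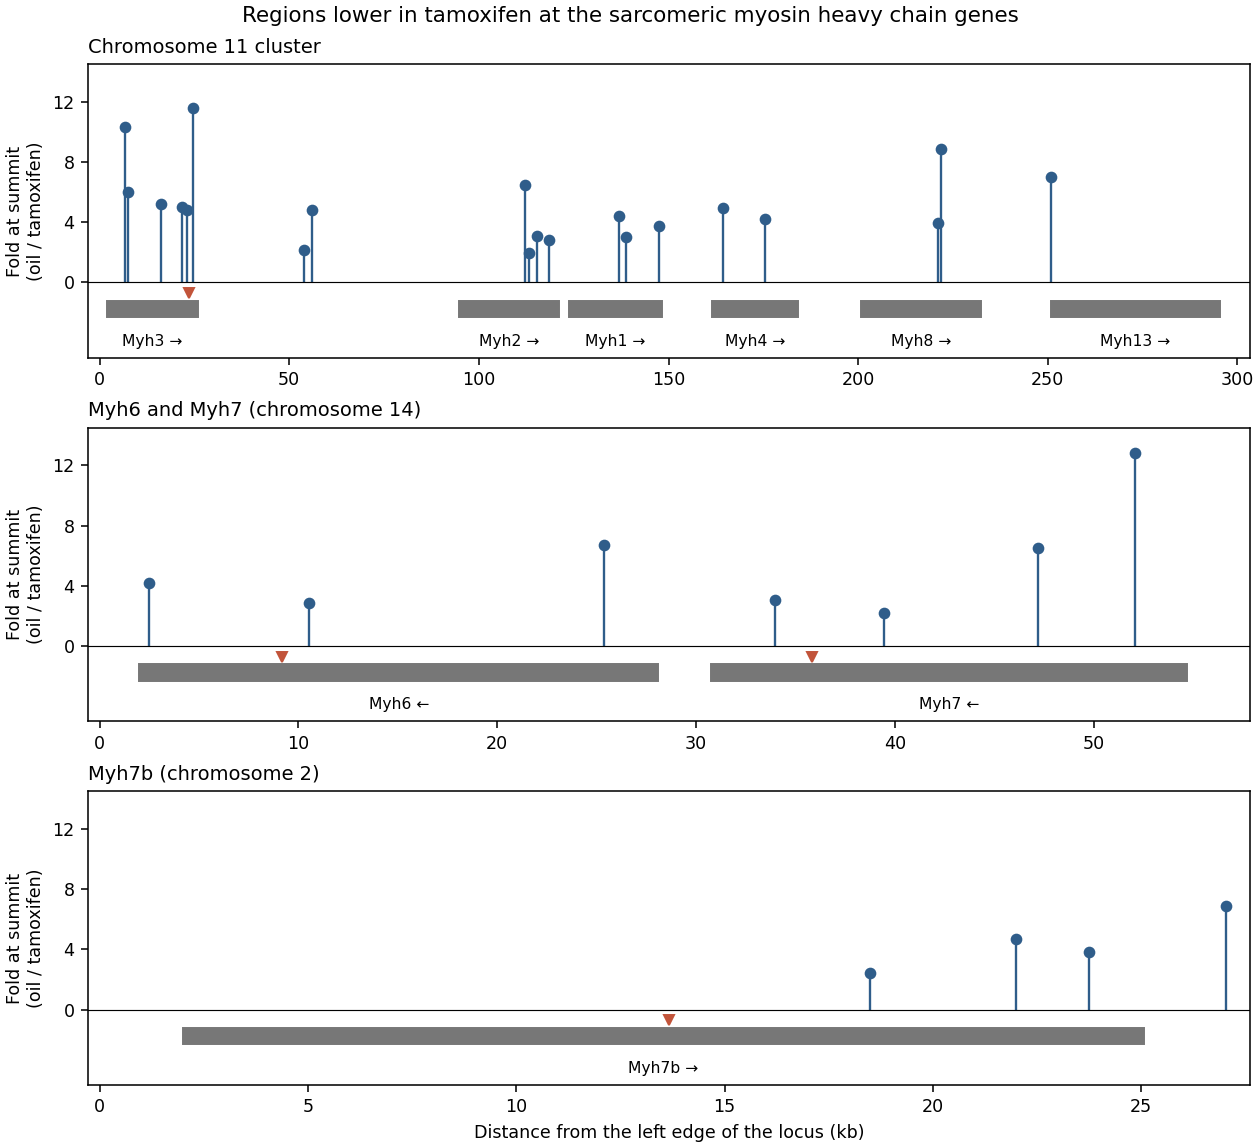
Map of the 3 loci, with distance from the left edge in kb on the x axis and the fold (oil over tamoxifen) at each summit on the y axis. Grey bars are gene bodies, arrows give the direction of transcription and triangles mark microRNA genes. The 6 stems over Myh3 crowd 24.0 kb, whereas the 44.5 kb of Myh13 hold 1 stem, at its annotated start.

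The members ranged from some of the highest to some of the lowest folds in the list. The 31 regions had a median fold of 4.71 (quartiles 3.07 and 6.47), beside 4.61 (3.67 and 5.87) over all regions. The highest was 12.8 in Myh7 and the lowest 1.93 in Myh2. A fold of 4 or more was found in 19 regions (61.3%), near the 66.1% of the whole list. Both ends of the range were fuller than in the whole list. Folds of 10 or more were found in 3 of 31 regions, beside 2.03% of all regions, and folds under 3 in 6 of 31, beside 10.2%. The 3 highest folds rested on 4 or fewer tamoxifen tags each, so their size is uncertain. Over the summits the members had 2 or fewer to 73 tamoxifen tags (median 14) and 22 to 130 oil tags (median 52). The list holds no region higher in tamoxifen, and summits stand where the oil pileup peaks, which leans folds upward.

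**Figure D2:**
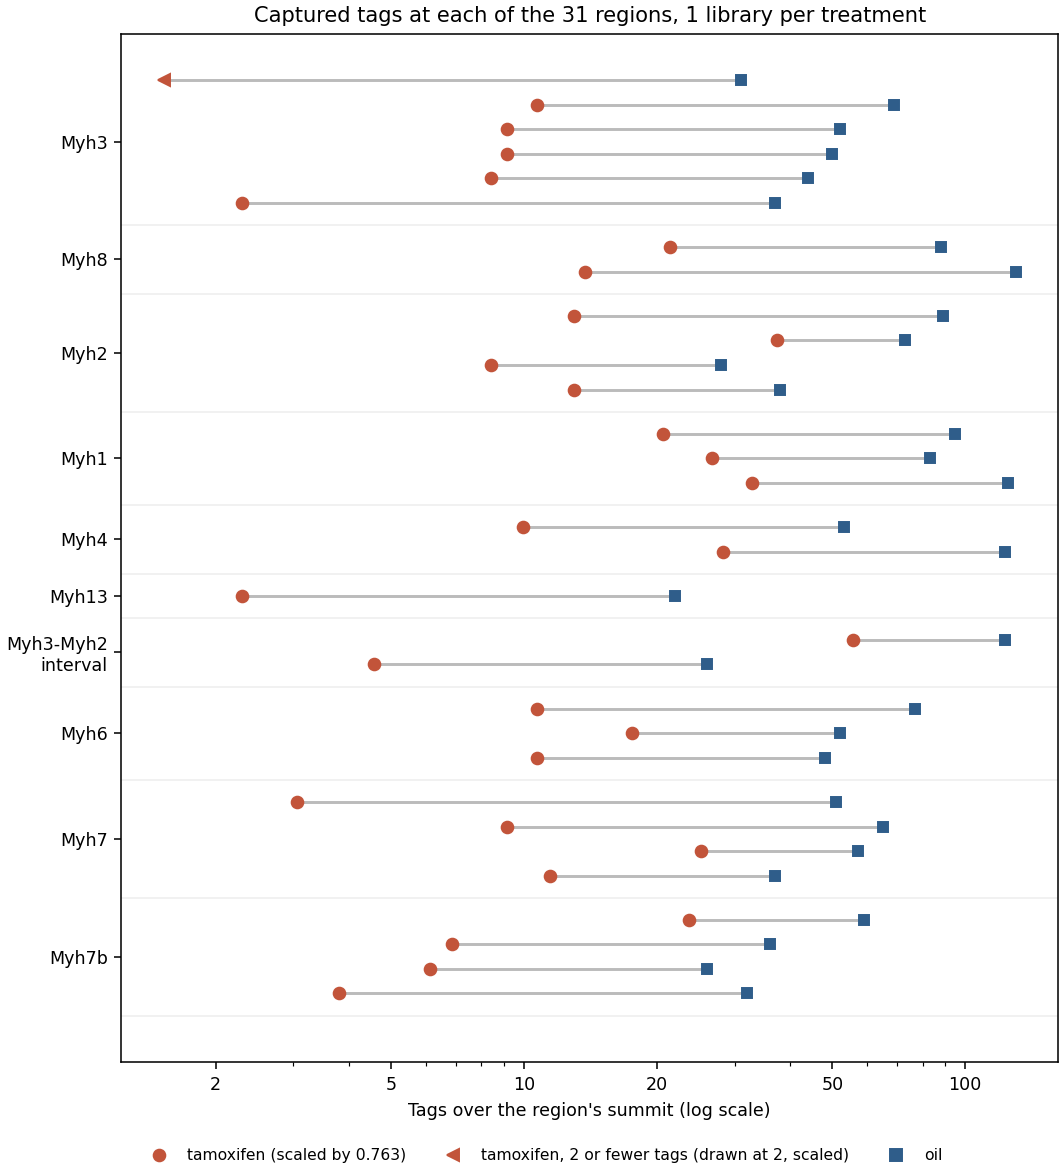
Tags over the summit of each of the 31 regions on a log x axis, with tamoxifen (scaled to the oil library) as circles and oil as squares, grouped by gene and ordered from the 5′ to the 3′ end within it. Every tamoxifen value lies left of its oil value, and the gap is widest in Myh3 and Myh7 and narrowest in Myh2 and at a region between Myh3 and Myh2.

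Myh3 encodes the embryonic heavy chain, the first to appear in forming and regenerating fibres, and carried the most regions. All 6 had a fold above that of the median region. The region at chr11:67082787-67083112, 4.67 kb after the start, had 2 or fewer tamoxifen tags and 31 oil tags. Its fold was 10.3, where the genome mean that the caller uses as a minimum stands in for the tamoxifen value, and the tag ratio was at least 5.17 at the lower limit. A short way further on, chr11:67083429-67083980 had 14 tamoxifen and 69 oil tags (fold 5.99). At 552 bp this region was longer than 97.0% of all regions. The 3 regions that followed had folds within a narrow range. They were chr11:67092307-67092563 with 12 tamoxifen and 52 oil tags (5.22), chr11:67097909-67098148 with 12 tamoxifen and 50 oil tags (5.02), and chr11:67099222-67099511 with 11 and 44 (4.79). The last member region of the gene, chr11:67100714-67100963, had 3 tamoxifen and 37 oil tags and a fold of 11.6 (limits 5.12 to 82.0). It lay 22.5 kb after the start of a 24.0 kb gene, at the 3′ and not the promoter end. Mir6923, a microRNA gene inside Myh3, lay 293 bp from the nearest region and held none.

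Myh8, the perinatal heavy chain gene, carried a pair of regions 20.1 and 21.1 kb after its start. The region chr11:67298115-67298429 had 18 tamoxifen and 130 oil tags, the most oil tags of any member region, and a fold of 8.90 (limits 5.76 to 16.5). The neighbouring chr11:67297066-67297378 had 28 tamoxifen and 88 oil tags and a fold of 3.98 (limits 2.67 to 6.55). The limits of these neighbours overlapped slightly. Summed over the regions of each gene, the tamoxifen library kept 14.6% of the oil signal in Myh3 (limits 10.7% to 19.5%, with 54 tamoxifen and 283 oil tags, counting the minimum as 2) and 16.1% in Myh8 (11.4% to 22.2%, 46 and 218 tags).

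The summed shares of the adult fast genes rested on few regions. The limits of these genes overlapped each other and give no order among them. In Myh2, the IIa gene, the tamoxifen library kept 31.4% (limits 24.5% to 40.1%, 94 tamoxifen and 228 oil tags). Of these tamoxifen tags, 49 came from the region chr11:67189238-67189604, without which 22.1% was kept (15.5% to 31%), a range that overlaps those of Myh3 and Myh8. Without chr11:67188273-67188594 instead, 42.2% was kept (31.6% to 56.2%). Myh8 likewise kept 24.3% (15.3% to 37.5%) without chr11:67298115-67298429, but 10.6% (6.07% to 17.4%) without chr11:67297066-67297378. In Myh1, the IIx gene, 26.4% was kept (21.0% to 33.1%, 105 and 303 tags). The share was 24.3% (18.3% to 31.9%) without chr11:67214918-67215277 and 28.6% (21.8% to 37.3%) without chr11:67213174-67213513. In Myh4, the IIb gene, 21.7% was kept (15.5% to 29.8%, 50 and 176 tags). The kept share of Myh3 stayed between 13.7% and 15.8% whichever region was left out. With all regions, the limits of Myh3 lay under those of Myh2 and Myh1, for counting error only.

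The 4 regions of Myh2 were unequal. The region chr11:67188273-67188594, 17.4 kb after the start, had 17 tamoxifen and 89 oil tags and a fold of 6.44 (limits 4.06 to 12.3). Less than 1 kb further on, chr11:67189238-67189604 had 49 tamoxifen and 73 oil tags. Its fold of 1.93 (limits 1.34 to 2.87) was the lowest of any member and lay under all but 0.482% of regions in the whole list. The limits of these neighbours did not overlap. The other regions of the gene, chr11:67191516-67191742 and chr11:67194550-67195027, had 11 and 17 tamoxifen tags against 28 and 38 oil tags, with folds of 3.09 and 2.79. With unscaled tamoxifen tags, 3 of the 4 regions of Myh2 were no longer past the authors' limit, and the first one was.

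Myh1 had 3 regions, all in the part of the gene away from its start. The region chr11:67213174-67213513 had 27 tamoxifen and 95 oil tags (fold 4.45), and chr11:67214918-67215277 had 35 and 83 (3.03). The third, chr11:67223587-67223896, had 43 tamoxifen and 125 oil tags (3.73) and lay 300 bp from the lncRNA gene Myhas, which overlaps the end of Myh1 and runs on toward Myh4. Their limits overlapped. Myh4 had a region near its 5′ end, chr11:67240603-67240823, 2.89 kb after the start, with 13 tamoxifen and 53 oil tags (4.95). Its other region, chr11:67251680-67252261, was the longest of any member at 582 bp and had 37 tamoxifen and 123 oil tags (4.24). Myh1, Myh2 and Myh4 are close copies of each other. The sources used here do not say how reads that match several copies were placed, so a tag may belong to a neighbouring gene. Likeness among the other members was not measured, and the same may hold for them.

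Myh13, the extraocular heavy chain gene and the longest member at 44.5 kb, had a lone region, whose summit lay 44 bp after the annotated start. It had 3 tamoxifen and 22 oil tags, the fewest oil tags of any member region, and a fold of 7.0 with wide limits (2.89 to 50.2). Of 17492 protein-coding genes with a start window in the RefSeq table, 0.909% had a region over any of their windows. No other member did. The rest of the gene held none, and neither did the lncRNA gene Gm40029 inside it.

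**Figure D3:**
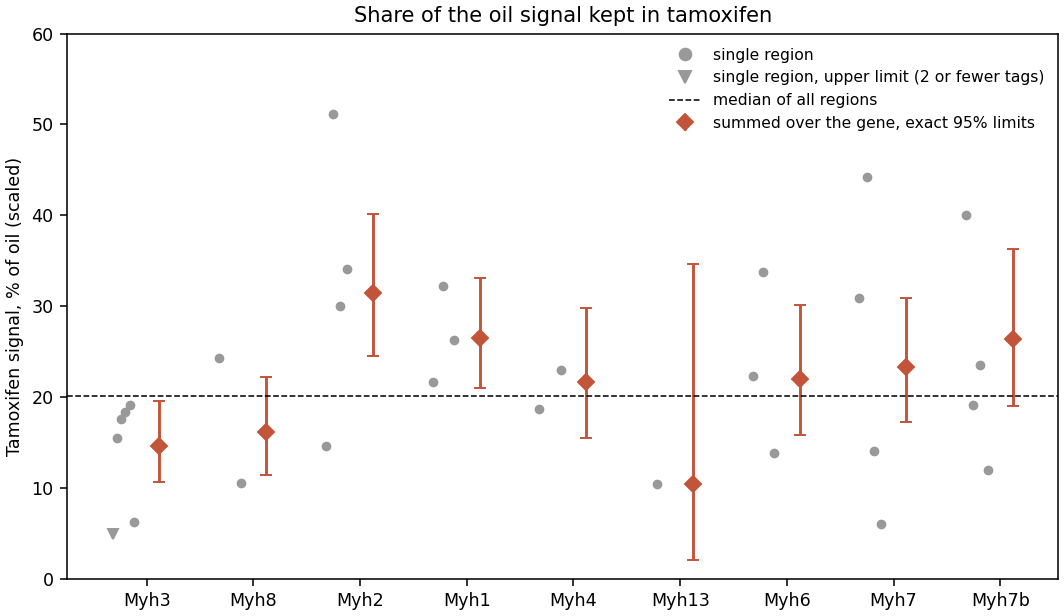
Tamoxifen signal as a percentage of the oil signal, scaled for library size, for single regions (grey) and summed over each gene's regions (diamonds with exact 95% limits for counting error). Single regions of a gene lie far apart, as in Myh2 and Myh7, while the limits of most sums overlap; the dashed line is the median of all regions, 20.1%.

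Between Myh3 and Myh2 lies the largest gap of the cluster, 68.7 kb, with 2 lncRNA genes, 2310065F04Rik (known as linc-MYH) and Gm31285. An enhancer shared by the adult fast genes has been described upstream of Myh2, but its coordinates were not used here. Both regions of the gap lay outside genes. The first, chr11:67129942-67130166, was 40.9 kb before the start of Myh2 and had 73 tamoxifen and 123 oil tags. Its fold was 2.19 (limits 1.64 to 2.99), and the 73 tamoxifen tags were the most of any member region. The other, chr11:67132309-67132535, 38.7 kb before that start, had 6 tamoxifen and 26 oil tags and a fold of 4.84 (limits 2.29 to 16.9). From there, 55.7 kb without a region followed, including the start of Myh2. The gaps between Myh2 and Myh1, Myh1 and Myh4, Myh4 and Myh8, and Myh8 and Myh13, of 2.58 to 18.5 kb, held none, and neither did 2310065F04Rik, Gm31285, Myhas or the tRNA gene n-TPtgg2 in Myh8.

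Myh7 encodes the heavy chain of slow fibres. Its 4 regions differed widely, with the lower tamoxifen signal toward the start of the gene. The region chr14:54991826-54992123, 2.58 kb after the nearest start, had 4 tamoxifen and 51 oil tags and a fold of 12.8 (limits 6.14 to 63.7), above 99.6% of all regions. At 7.44 kb, chr14:54986848-54987261 had 12 tamoxifen and 65 oil tags (6.50, limits 3.80 to 14.4). At 15.2 kb, chr14:54979335-54979567 had 33 tamoxifen and 57 oil tags (2.22, limits 1.45 to 3.59). At 20.7 kb, chr14:54973718-54974050 had 15 and 37 tags (3.05, limits 1.73 to 6.34). The limits of the first region lay above those of the third and overlapped narrowly with those of the last, and the limits of the second also lay above those of the third. The lncRNA gene Gm31251 covered the first 3 of these, and Mhrt, a lncRNA gene antisense to Myh7, the last, so they are not regions of Myh7 alone. With unscaled tamoxifen tags the third was no longer past the authors' limit.

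Myh6, the alpha heavy chain gene of the heart, showed a like order over 3 regions. The region chr14:54965127-54965455, 1.33 kb after the start, had 14 tamoxifen and 77 oil tags (fold 6.68, limits 4.05 to 13.8). That start is the one of the RefSeq start window (54966607). The gene body, from which the place along the gene was measured, reaches further upstream, to 54968017. In the body, chr14:54950391-54950641 had 23 tamoxifen and 52 oil tags (2.86, limits 1.78 to 5.08). At the 3′ end, chr14:54942366-54942566 had 14 and 48 tags (4.20, limits 2.44 to 8.83) and also lay inside the neighbouring gene Cmtm5. All 3 limits overlapped. The lncRNA gene Gm52092, inside Myh6, held no region and lay 399 bp from the middle one. The 2.67 kb between Myh6 and Myh7, a stretch that in the heart carries control elements of Myh6, held no region. Over all their regions the tamoxifen library kept 22% of the oil signal in Myh6 (limits 15.8% to 30.2%) and 23.2% in Myh7 (17.3% to 30.9%).

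Myh7b encodes a slow heavy chain of ancient origin. Its regions all lay 16.5 kb or more after the start. The region chr2:155627533-155627761 had 31 tamoxifen and 59 oil tags (fold 2.43, limits 1.59 to 3.99), and was not past the authors' limit with unscaled tamoxifen tags. Nearer the 3′ end, chr2:155631028-155631303 had 9 tamoxifen and 36 oil tags (4.71), and chr2:155632815-155633159 had 8 and 26 (3.80). Beyond the end, chr2:155636130-155636330 had 5 tamoxifen and 32 oil tags (6.86, limits 3.25 to 27.6) and lay inside the next gene, Trpc4ap. Summed over the 4, 26.4% of the oil signal was kept (limits 19% to 36.3%).

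The microRNAs of these slow and cardiac genes, which act on muscle fibre type and heart genes, are made from their hosts' introns. The printed strands of miR-208a and miR-208b share the seed UAAGACG and match at 19 of 22 bases, while miR-499-5p has the seed UAAGACU. None of the 3 hairpins lay in a region. Mir208a was 1.25 kb from the nearest, that of fold 2.86 with 23 tamoxifen and 52 oil tags. Mir208b was 1.65 kb from that of fold 3.05, with 15 and 37 tags. Mir499 was 4.58 kb from that of fold 2.43, with 31 and 59 tags. In all 3 hosts the region nearest to the microRNA gene had a fold under the 4.61 median of all regions. Each host also had a region further off under that median (4.20 in Myh6, 2.22 in Myh7 and 3.80 in Myh7b). The remaining regions of the hosts lay above it.

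Along the genes, most summits lay toward the 3′ end, and the few toward the start had a higher median fold. Of 28 summits inside members, 21 (75%) lay in the downstream 50% of the gene. The share was 58.7% over all protein-coding genes with a known strand and 59.0% in those of like length. Members Myh1, Myh2, Myh7b and Myh8 had no summit in the upstream 50%. The 7 upstream summits, in Myh3, Myh4, Myh6, Myh7 and Myh13, had a median fold of 6.68 and none under 4.95. The 21 downstream summits had a median of 3.98, and 11 of them were under 4. In protein-coding genes of like length the medians were 4.82 upstream and 4.78 downstream, with 28.6% and 29.1% under 4. Without Myh7 the members' medians were 6.68 and 4.20, and without Myh3 6.68 and 3.73. This split was chosen after the values were seen, regions of a gene are not replicates, and Myh3 and Myh8 had folds of 11.6 and 8.90 downstream. Outside the split were the region beyond the end of Myh7b (fold 6.86) and the 2 between Myh3 and Myh2 (2.19 and 4.84).

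**Figure D4:**
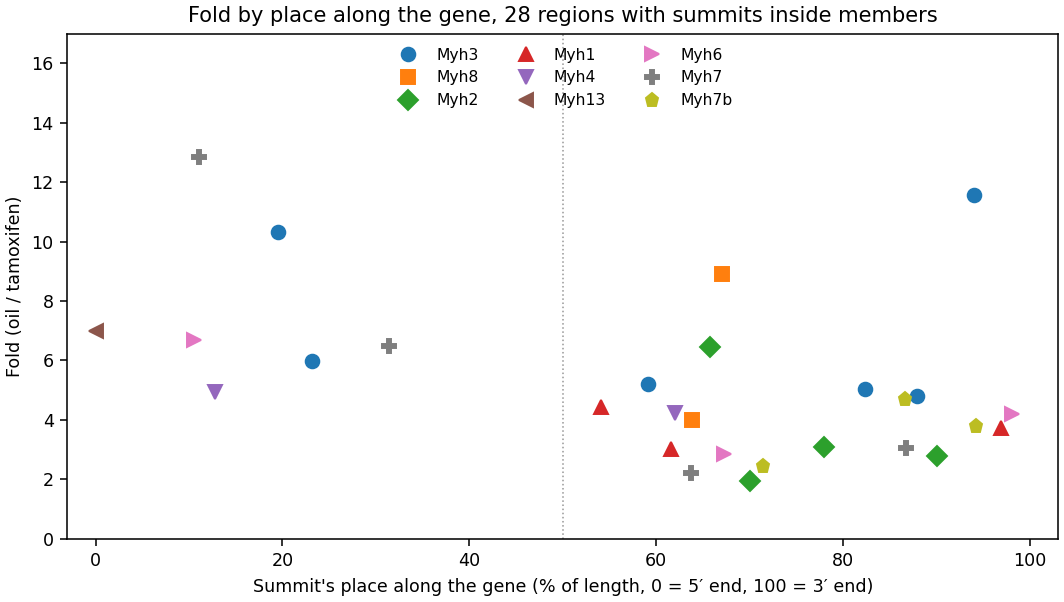
Fold (oil over tamoxifen) of the 28 regions with summits inside members against the summit's place along the gene, from the 5′ end at 0% to the 3′ end at 100%. The 7 points left of the dotted middle line all lie at 4.95 or more, whereas those to its right reach down to 1.93.

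The annotated starts of the members held few CpG sites. Their 10 windows of 300 bases (Myh7 has 2 annotated starts) held 1 to 9 CpG sites with a median of 3.5. The median over 21263 windows of protein-coding genes was 13. As the printed windows show, Myh4 had 1 site, Myh13 had 3 and Myh2 had 9. Across all these windows a region was found over 0.298% of those with 4 or fewer sites (18 of 6035), 2.18% of those with 5 to 9, 1.36% of those with 10 to 19 and 0.183% of those with 20 or more. The Myh13 window is thus among the poorest in CpG that carried a region. It held 2 matches to the E-box CANNTG, the motif bound by MyoD-family factors, which 69.0% of windows hold at least once (the motif reads the same on both strands). No TATAAA was found on either strand, and 12.6% of windows hold one. Matches are to letters only. As the annotated Myh13 start may be that of translation, its window may not be the promoter of the gene. Outside these windows no sequence was used, so the CpG content of the other regions was not examined, nor were exons and introns told apart.

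**Figure D5:**
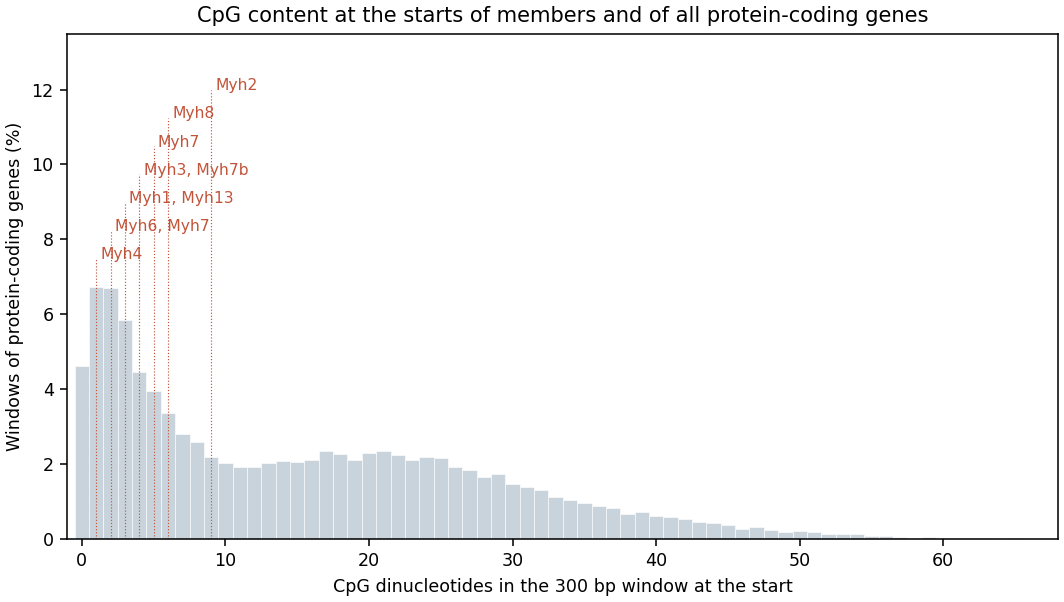
Share of 21263 start windows of protein-coding genes (y axis, %) by their number of CpG sites in 300 bases (x axis), with the members marked at their own counts. All members lie at 9 sites or fewer, under the median of 13; Myh7 is marked at both of its starts.

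Other genes tied to the thick filament were counted by the same rule. The partners listed were light chains, myosin-binding proteins, M-band and scaffold proteins, light chain kinases and a ubiquitin ligase. Of these 20 partners of the heavy chains, 12 carried a region. That share of 60% stands beside 45.2% of all protein-coding genes and 55.4% of those of 22.6 to 44.5 kb. The partner genes ran from 2.15 to 278.6 kb (median 21.9 kb), and no share matched to their lengths was computed. The highest folds were in Ttn, the titin gene (9.35, 5 tamoxifen and 44 oil tags, among 29 regions), Myom2, an M-band gene (8.82, 3 and 28 tags), Myom1, another (8.71, 2 or fewer and 26 tags), and Mybpc1, the slow myosin-binding protein C gene (7.71, 6 and 42 tags). The median over the list's 61 regions was 4.51. The other 8 had none. Of 18 genes that fold heavy chains or control their genes, 10 carried a region (55.6%, beside the same 45.2% and 55.4%). Their median length was 50.6 kb and the longest had 569.9 kb, and again no length-matched share was computed. The highest folds were in Tead1, a factor that binds MCAT elements of muscle genes (11.3, 8 tamoxifen and 79 oil tags), the thyroid hormone receptor gene Thra (8.79, 6 and 48), the calcineurin-responsive Nfatc1 (8.64, 4 and 34) and Sox6, a repressor of slow genes (7.74, 2 or fewer and 23). The other 8 had none, and the median over the list's 35 regions was 4.28. A gene without a region may be unmethylated, unchanged, higher in tamoxifen or thinly covered.

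Myosin heavy chain genes other than the members carried regions too. Of the 4 nonmuscle and smooth muscle heavy chain genes of the same class, Myh10 had 8 regions (highest fold, oil over tamoxifen, 6.31, with 7 tamoxifen and 39 oil tags), Myh9 had 5 (6.15, 7 and 38 tags) and Myh14 had 1 (3.80, 17 and 52 tags). Myh11, the smooth muscle gene, had none in 97.7 kb. These 3 of 4 genes stand beside 77.4% of protein-coding genes of 65.1 to 124.7 kb, the range of the list. Of 25 other myosin heavy chain genes (24 of other classes, which build no thick filament, and Myh15), 24 carried a region. The share was 62.6% among protein-coding genes in the range of that list, 14.4 to 480.8 kb. The median length of the list was 142.2 kb, and within this wide range no share matched to its lengths was computed. The highest folds were in Myo5a, a vesicle motor (11.9, 4 tamoxifen and 47 oil tags), Myo1d (10.6, 12 and 107), Myo18a (10.4, 4 and 41) and Myo5b (9.92, 9 and 77). Myo1g had none. The median folds were 5.19 over the 14 regions of the first list and 4.68 over the 100 of the second, beside 4.71 for the member regions.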

How the data were processed

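The data were 1 list of regions for 1 tamoxifen and 1 oil library of satellite cell DNA. The authors used MACS 2.2.6, per the file headers, at a q cutoff of 1e-04, with at most 1 tag per position, 130 bp tags extended to 201 bp, the larger library scaled down and no regional background. Trim Galore, HISAT2 and mm10 are named in the submitters' processing notes. The deposited pileup is a signal value, the number of oil tags over the summit. In the deposited fold enrichment, a ratio, 1 was added both to the oil pileup and to the scaled tamoxifen value. Headings were lost for 2 deposited columns, which hold -log10 of the p and of the q.

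Tamoxifen tags were computed from pileup and fold with the library factor of 0.763. They were whole within 0.02 in 38251 regions (97.5%). In the other 980 the value was the genome mean of 2.10 scaled tags, so 2 or fewer tags. A -log10 p recomputed from them came within 1.4e-05 of the deposited one everywhere. The recovery, the limits and the overlap counts were tested on simulated data. Genes came from the RefSeq table of GRCm38.p6 (the mm10 assembly), strand and starts from the RefSeq start windows, which covered 17492 of 21887 protein-coding genes. An overlap of 1 bp counted. Python 3.11.15, pandas 2.3.3 and scipy 1.17.1 were used.

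The members, the 4 other gene lists and the alternatives were chosen with earlier results of these data known. Every member is named with every region; of each other list, up to 4 genes of highest fold are named. Genes of a list without a region are named where there are 4 or fewer. The split of members into an upstream and a downstream 50% was added after their values were seen.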

Additional observations from a re-analysis of the deposited data

How the results depend on the processing

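No paired analysis was possible because each treatment has 1 library. All 9 members kept a region under every alternative tried, which were q limits of 1e-06 and 1e-10, no flank, a flank of 5000 bp, at least 50% of the region inside, a fold of 4 or more, and unscaled tamoxifen tags. The number of member regions was 31 and fell to 19 with a fold of 4 or more (13 in the chromosome 11 cluster, 4 at Myh6 and Myh7, 2 at Myh7b). With a q limit of 1e-10 the pair kept 4 and Myh7b kept 2 regions. The members' median fold was 3.70 with unscaled tags. The share of protein-coding genes with a region was 44.5% at 1e-06, 41.4% at 1e-10, 41.8% with no flank, 50.6% with 5000 bp, 37.4% at a fold of 4 and 44.2% with unscaled tags. In genes of like length it was 50.8% at 1e-10, 52.8% with no flank, 59.2% with 5000 bp and 46.3% at a fold of 4. The other 64 recomputed summary values and all 18 for the strongest region of each member stayed within 1.5 times or within their limits. At the authors' limit, 26 member regions (83.9%) stayed past it with unscaled tags, beside 94.7% of all regions, and 22 (71.0%) passed 1e-10, beside 82.8%. Leaving out each region in turn, chosen after the values were seen, moved the summed kept share beyond its limits in 6 of 28 cases, in Myh2, Myh7, Myh7b and Myh8. No region of Myh13 could be left out, and its limits (1.99% to 34.6%) were wide at 3 tamoxifen and 22 oil tags.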

Other observations

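The nearest regions outside the loci are given by their distance from the end of the 2000 bp flank. At the chromosome 11 cluster they had folds of 7.06 (34.1 kb before, in Adprm) and 7.35 (159.1 kb after, in Gas7). At the Myh6 and Myh7 pair they had folds of 6.86 (4.59 kb before, at Il25) and 7.65 (20.3 kb after, at Ngdn). At Myh7b they had folds of 10.04 (23.2 kb before, in Gss) and 3.87 (26.3 kb after, in Trpc4ap).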
